A study of Mus musculus with 7 samples.

Results

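The accessible sites of the mouse globin gene clusters were examined in LSK cells (Lineage-, c-Kit+, Sca-1+ bone marrow cells, the compartment of stem and multipotent progenitor cells). The 7 genes are Hba-x, Hba-a1 and Hba-a2 of the alpha-globin cluster on chromosome 11 and Hbb-y, Hbb-bh1, Hbb-bs and Hbb-bt of the beta-globin cluster on chromosome 7. A peak was a member when its summit lay in the body of one of these genes or within 80 kb of one, which gives a window on mm10 from 32196400 to 32377298 on chromosome 11 and from 103732524 to 103933216 on chromosome 7. Between 49 and 54 peaks of each library met this rule, out of 137963 to 151552 peaks in a library. Joined across libraries, they formed 57 sites, 38 in the alpha window and 19 in the beta window. Of these, 50 were among the 132491 consensus regions of the series and 42 among the 104274 regions called in all 7 libraries and tested.

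ATAC-Seq, which uses a transposase to insert adapters into accessible DNA, was run to ask whether a diabetic pregnancy leaves a trace in the blood progenitors of the offspring. WTAkita libraries (n = 4) came from adult WT C57/BL6 offspring of diabetic pregnancy. Their dams were heterozygous for the Ins2Akita mutation (Ins2Akita/+), which the offspring analysed did not inherit. Ctrl libraries (n = 3) came from adult WT C57/BL6 offspring of normal pregnancy, bred by a like scheme. The study's methods have the females of either kind on a high-fat diet before breeding and the offspring on a regular diet. Each library was made from 50000 sorted cells. The sources used here do not state the number of mice behind a library, and p-values therefore cover only the spread among these 7 libraries.

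Globin genes encode the chains of hemoglobin, and in each cluster the embryonic genes stand before the adult ones. Hba-x, Hbb-y and Hbb-bh1 are embryonic, and Hba-a1, Hba-a2, Hbb-bs and Hbb-bt are the genes of the adult red cell. Alpha-globin genes are driven from enhancers that lie mostly in introns of the neighbouring housekeeping gene Nprl3 and are named by their distance in kb from Hba-x, while beta-globin genes are driven from the locus control region before Hbb-y. Sites bound by CTCF, a protein that helps fold chromosomes into loops, border the clusters. GATA1, KLF1 and NF-E2 are the erythroid factors best known at these elements. LSK cells precede the commitment to the red cell lineage.

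Distances below are in kb from the start of Hba-x or of Hbb-y, with a minus sign before the gene. Distances use gene starts of the GENCODE annotation, while printed promoters use RefSeq starts, which can differ. Values are the deposited fold enrichments, the pileup of tags at the summit divided by that library's own local background. They are not scaled between libraries, whose median fold enrichment was 5.25, 5.78, 6.32 and 6.59 in WTAkita and 5.79, 6.48 and 6.47 in Ctrl. The number of tags, estimated from the background level, was 4.05e+07 to 5.31e+07 in WTAkita and 3.76e+07 to 5.19e+07 in Ctrl. At the 42 tested sites the deposited value of WTAkita replicate 1 was the lowest of the 7 libraries 20 times, and after quantile normalization 5 times. Of the 10 stem cell and LSK marker genes, 10 had a peak at the start in every library, with summed fold enrichments of 94.3 to 116 in WTAkita and 106 to 111 in Ctrl. Of 14 erythroid marker genes, 6 or 7 had one in WTAkita and 6 in Ctrl, with sums of 81.7 to 107 in WTAkita and 91.9 to 103 in Ctrl. Gata1, Klf1, Slc4a1, Rhag, Rhd and Ermap had none in any library, while the starts of Epor, Hemgn, Epb42 and Tfrc were among those open in all 7. Megakaryocyte markers had 4 of 5 open starts in every library, granulocyte and monocyte markers 4 to 6 of 10 in WTAkita and 4 to 6 in Ctrl, B cell markers 4 to 5 of 6 in WTAkita and 5 in Ctrl, and T cell markers 3 of 6 in WTAkita and 2 to 3 in Ctrl. Whether such cells have a part in the values below was not tested.

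The sequences of 5 control sites, so called by their position alone, are shown for their motifs. They include the 2 sites before the globin genes with the highest mean fold enrichment in each cluster. The other is the alpha site at the position of the known enhancer HS-12. All are from the GRCm38 reference, 201 bases around the median summit, in the direction of the globin genes (the plus strand of chromosome 11 and the minus strand of chromosome 7). Capitals mark matches, on either strand, to the GATA factor motif AGATAA (also with T as its first letter), the motif CCNCNCCC of Kruppel-like factors, the motif TGAGTCA shared by NF-E2 and AP-1, the ETS factor motif AGGAAG, the RUNX factor motif TGTGGT or the CTCF core with at most 1 mismatch. Around the summits of all 104274 tested regions, windows of this length held these motifs in 13.2%, 28.9%, 6.16%, 43.8%, 24.2% and 20.4% of cases, in the same order. The sites lie at chr11:32238491-32238691 (-37.8 kb), chr11:32247146-32247346 (-29.2 kb), chr11:32265142-32265342 (-11.2 kb), chr7:103910069-103910269 (-57.0 kb) and chr7:103860980-103861180 (-7.9 kb).
alpha -37.8 kb site: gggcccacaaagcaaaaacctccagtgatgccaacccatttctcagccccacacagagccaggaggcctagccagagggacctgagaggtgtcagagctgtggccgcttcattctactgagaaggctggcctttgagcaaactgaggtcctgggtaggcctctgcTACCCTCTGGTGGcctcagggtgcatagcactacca
alpha -29.2 kb site: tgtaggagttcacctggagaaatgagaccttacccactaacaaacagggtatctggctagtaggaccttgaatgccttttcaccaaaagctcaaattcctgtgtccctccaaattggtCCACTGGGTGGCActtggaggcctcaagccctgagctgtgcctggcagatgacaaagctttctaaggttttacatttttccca
alpha -11.2 kb site: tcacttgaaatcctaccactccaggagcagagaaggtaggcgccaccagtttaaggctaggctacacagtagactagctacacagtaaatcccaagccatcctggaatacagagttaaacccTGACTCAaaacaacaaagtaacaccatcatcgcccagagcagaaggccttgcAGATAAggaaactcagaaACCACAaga
beta -57.0 kb site: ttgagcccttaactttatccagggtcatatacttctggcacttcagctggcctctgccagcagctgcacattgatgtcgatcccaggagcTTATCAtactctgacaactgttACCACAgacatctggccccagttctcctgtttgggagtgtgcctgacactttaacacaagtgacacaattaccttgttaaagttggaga
beta -7.9 kb site: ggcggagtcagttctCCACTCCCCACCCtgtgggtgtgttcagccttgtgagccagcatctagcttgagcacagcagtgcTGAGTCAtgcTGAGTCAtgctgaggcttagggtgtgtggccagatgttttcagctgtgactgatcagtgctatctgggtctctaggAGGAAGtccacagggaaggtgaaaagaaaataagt
The windows at -37.8 and -29.2 kb each held 1 match to the CTCF core and none to the GATA, Kruppel-like or NF-E2 motifs. The window at -11.2 kb held 1 GATA, 1 NF-E2 and 1 RUNX motif. The window at -7.9 kb held 2 NF-E2 motifs in tandem, an arrangement known from HS2 of the beta-globin locus control region. The annotation used here names no such element, and a motif match alone does not show that a factor is bound.

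The alpha-globin control interval, from Hba-x to the far end of Nprl3, held 8 sites, all with a peak in every library. The site of highest fold enrichment lay in an intron of Nprl3 at -37.8 kb (chr11:32238281-32238871), where the CTCF site HS-38 is known. Its fold enrichment was 18.5, 23.8, 30.2 and 28.3 in WTAkita, against 25.6, 29.6 and 28.9 in Ctrl (means 25.2 ± 5.19 in WTAkita, n = 4, and 28.0 ± 2.11 in Ctrl, n = 3, SD). By fold enrichment it ranked above 99.2% of the peaks of a library at the median. WTAkita replicate 1 was the lowest of the 7, and the groups overlapped. By summit pileup the site at -8.8 kb was higher in every library, at 246 to 356 against 126 to 274 at -37.8 kb. Next in fold enrichment was the site at -29.2 kb (chr11:32246974-32248119), where the CTCF site HS-29 is known. It had 13.6, 16.9, 19.6 and 22.1 in WTAkita, against 17.8, 20.8 and 19.9 in Ctrl. The groups overlapped there too, with replicate 1 of each group lowest in its group.

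**Figure D1:**
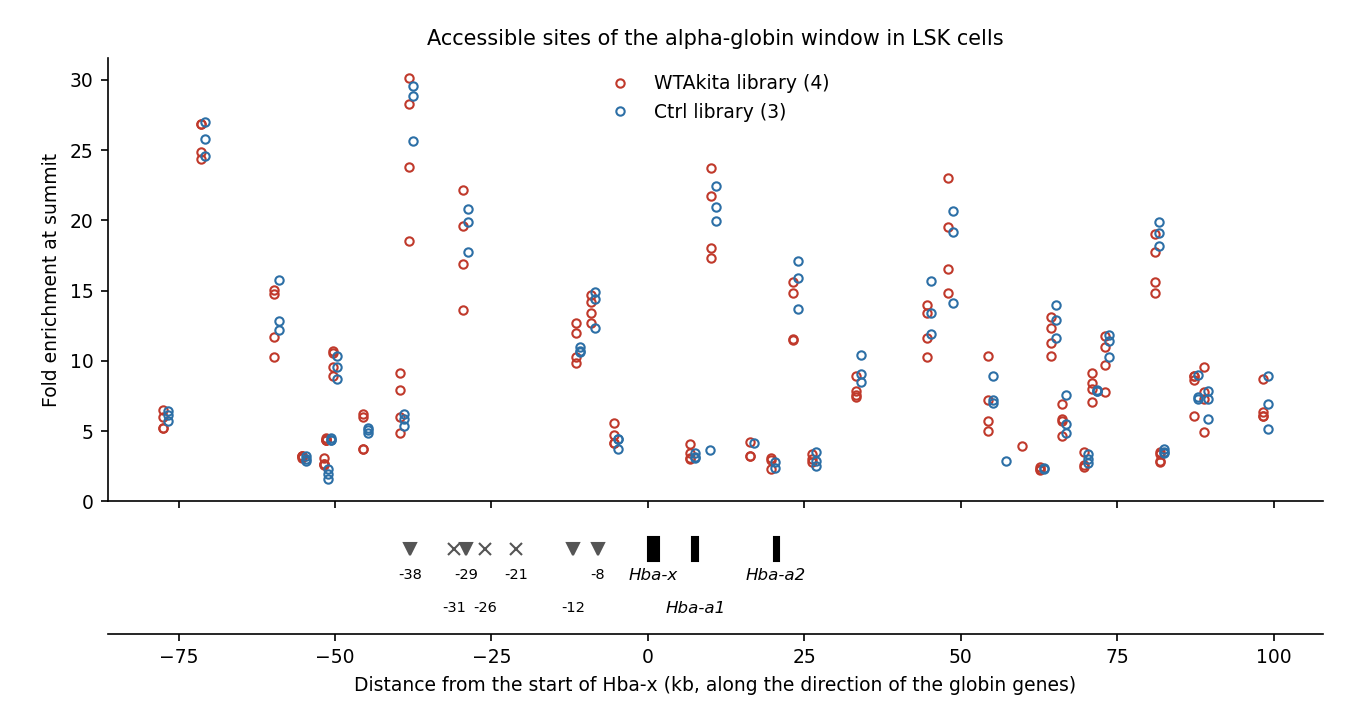
Fold enrichment at the summit (vertical axis) of every site of the alpha-globin window, by distance in kb from the start of Hba-x (horizontal axis), with each WTAkita library as a red circle and each Ctrl library as a blue circle, drawn 0.35 kb to the left and right of the site. Below, black boxes are the 3 alpha-globin genes, triangles are known elements with a site within 1.5 kb and crosses are known elements without one (numbers in kb). The highest fold enrichments are at -37.8 and -71.1 kb, the adult gene Hba-a1 reaches at most 4.1, and no site lies between -29.2 and -11.2 kb.

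Enhancers of the alpha-globin cluster were not open alike. No peak of any library had its summit within 1.5 kb of the known positions of HS-31 (enhancer R1), HS-26 (enhancer R2, the strongest of the alpha-globin enhancers in red cells) or HS-21 (enhancer R3). The stretch from -29.2 to -11.2 kb held no site over 18.0 kb. Openness too weak to be called against the local background was not detectable at this depth. The position of HS-12 (enhancer Rm) had a site in every library, at -11.2 kb in an intron of Nprl3 (chr11:32265065-32265630). It had 9.86, 10.3, 12.0 and 12.7 in WTAkita, against 10.6, 11 and 10.7 in Ctrl (means 11.2 ± 1.36 in WTAkita and 10.8 ± 0.195 in Ctrl, SD). The Ctrl values fell inside the WTAkita range.

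The position of HS-8 (enhancer R4) also had a site in every library, at -8.8 kb (chr11:32267205-32267894), but its summit was 97 bp from the start of Nprl3, so the enhancer and the Nprl3 promoter cannot be told apart. Its fold enrichment was 12.7, 13.4, 14.7 and 14.2 in WTAkita, against 12.3, 14.9 and 14.4 in Ctrl. Another site of the interval is a promoter, at -50.0 kb and 78 bp from the start of Mpg, a DNA repair glycosylase gene, with 8.95 to 10.7 in WTAkita and 8.69 to 10.3 in Ctrl. The other 3 control sites were weaker. That at -45.1 kb, in a UTR of Nprl3 and an intron of Mpg, had 3.73 to 6.22 in WTAkita and 4.90 to 5.21 in Ctrl. The one at -39.2 kb, in a noncoding exon of Nprl3, had 4.84 to 9.12 in WTAkita and 5.37 to 6.24 in Ctrl. Like the -37.8 kb site, it lay within 1.5 kb of the known position of HS-38. Between Nprl3 and Hba-x, the site at -5.1 kb had 4.12 to 5.59 in WTAkita and 3.70 to 4.47 in Ctrl. At all 3 the groups overlapped.

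The alpha-globin genes themselves were barely open. Hba-a1 had a weak site 52 bp from its GENCODE start, in a UTR of that annotation (chr11:32283331-32283890). Its fold enrichment was 3.11, 3.03, 3.44 and 4.1 in WTAkita, against 3.47, 3.14 and 3.06 in Ctrl. WTAkita replicate 4 was the highest and the groups overlapped. At the median it ranked above 19.6% of the peaks of its library, and it was not tested, since its peaks covered less than 50% of the joined region in at least 1 library. Hba-a2 had a weaker site 103 bp from its start (chr11:32296292-32296582), with 2.33, 2.95 and 3.10 in WTAkita replicates 1, 2 and 4 and none in replicate 3, against 2.79 and 2.40 in Ctrl replicates 1 and 2 and none in replicate 3. The embryonic gene Hba-x had no site, the nearest being 5130 bp from its start.

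Hba-a1 and Hba-a2 are near copies, so their values may share reads. Their promoters as RefSeq gives them for GRCm38 are identical over 297 of 297 aligned bases, and 100% of the words of 50 bases in the window of either site occur again in the alpha window. The handling of reads that map to several places is not described in those sources, and the weak signal cannot be assigned to either gene. The promoter of Hba-a1, at chr11:32283422-32283721 on the plus strand, is shown from 250 bases before the RefSeq start to 50 after it, with capitals as above. That start lies downstream of the GENCODE start at 32283511. The summit of the Hba-a1 site, at 32283563, therefore falls inside this promoter and before the RefSeq start. The promoter holds 1 GATA and 1 ETS motif, which 18.6% and 35.4% of all 32851 promoters of that table hold.
Hba-a1 promoter: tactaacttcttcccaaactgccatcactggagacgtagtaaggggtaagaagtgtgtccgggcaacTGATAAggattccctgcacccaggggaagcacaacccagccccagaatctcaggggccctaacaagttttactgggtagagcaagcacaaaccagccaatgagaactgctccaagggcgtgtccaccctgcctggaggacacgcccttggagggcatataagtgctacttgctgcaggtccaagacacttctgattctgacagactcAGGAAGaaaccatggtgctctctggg

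Beside each adult alpha-globin gene lay a far stronger site, at the start of a theta-like gene. That at +10.5 kb, 62 bp from the start of Hbq1b, had 17.3, 18.0, 21.7 and 23.7 in WTAkita, against 19.9, 20.9 and 22.4 in Ctrl. That at +23.6 kb, 59 bp from the start of Hbq1a, had 11.5, 11.5, 15.6 and 14.9 in WTAkita, against 13.7, 15.9 and 17.1 in Ctrl. Both windows held matches to the CTCF core, 36.8% of their words of 50 bases occur a second time in the alpha window, and the promoters of Hbq1a and Hbq1b are 95.3% identical.

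The beta-globin locus control interval, from Hbb-y to 80 kb before it, held 10 sites, of which 5 had a peak in every library. The strongest was at -7.9 kb (chr7:103860879-103861361), the site with the tandem NF-E2 motifs printed above. Its fold enrichment was 14.8, 15.8, 19.2 and 17.3 in WTAkita, against 17.0, 20.7 and 18.7 in Ctrl (means 16.8 ± 1.91 in WTAkita and 18.8 ± 1.87 in Ctrl, SD). It ranked above 90.2% of the peaks of a library at the median, Ctrl replicate 2 was highest, and the groups overlapped. A neighbour at -8.5 kb (chr7:103861499-103861977), whose window held 1 NF-E2 motif, had 9.16, 10.9, 9.34 and 10.3 in WTAkita, against 9.89, 11.6 and 8.83 in Ctrl. Here the WTAkita values fell inside the Ctrl range.

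**Figure D2:**
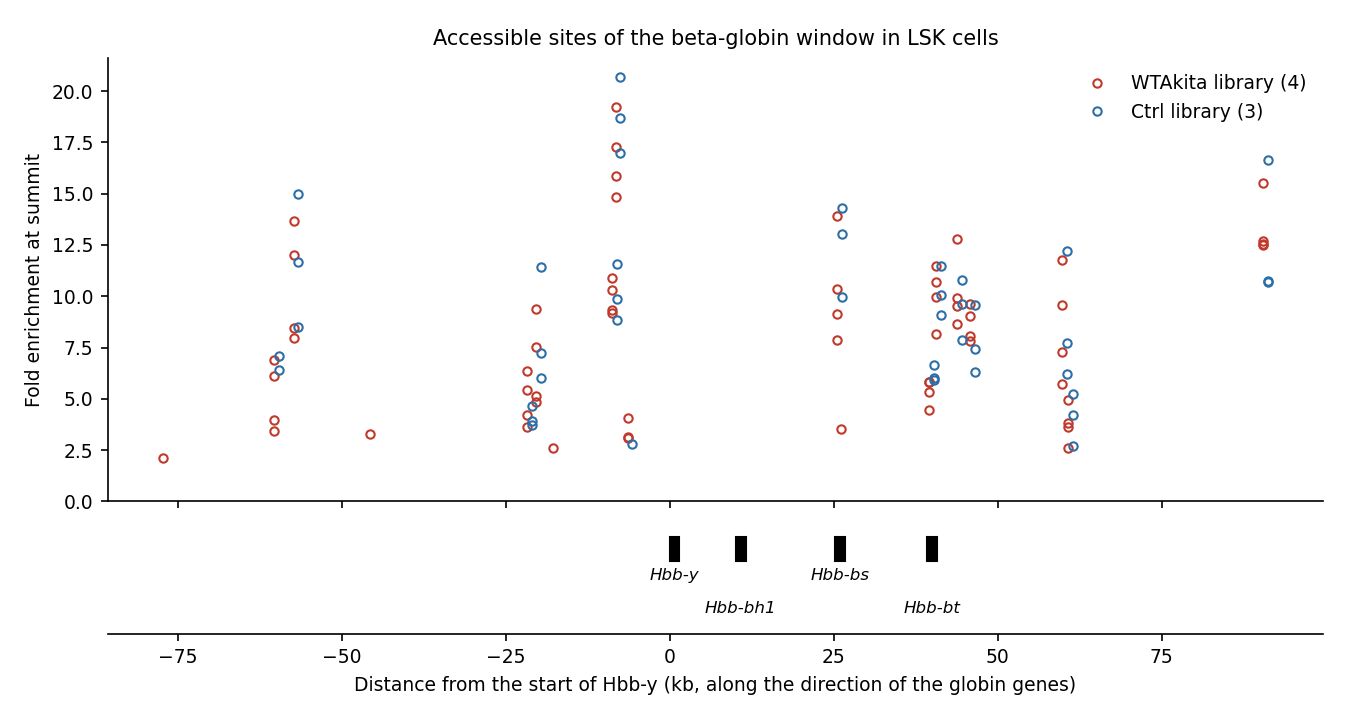
Fold enrichment at the summit (vertical axis) of every site of the beta-globin window, by distance in kb from the start of Hbb-y (horizontal axis), with each WTAkita library as a red circle and each Ctrl library as a blue circle, drawn 0.35 kb to the left and right of the site. Black boxes are the 4 beta-globin genes. The highest values are at -7.9 kb, and no site lies between -6.0 and +25.9 kb, the stretch with the embryonic genes Hbb-y and Hbb-bh1.

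Farther from Hbb-y lay 3 more sites with a peak in every library. That at -20.0 kb (chr7:103873075-103873473) had 4.84, 5.13, 7.54 and 9.36 in WTAkita, against 6.0, 11.4 and 7.22 in Ctrl. That at -21.3 kb (chr7:103874397-103874824), whose window held a match to the CTCF core, had 4.24, 3.61, 6.36 and 5.44 in WTAkita, against 3.93, 4.64 and 3.73 in Ctrl. At -57.0 kb (chr7:103909860-103911061), close to olfactory receptor genes, the values were 8.47, 7.98, 13.7 and 12.0 in WTAkita, against 8.48, 15.0 and 11.7 in Ctrl. The groups overlapped at each of these 3 sites, and replicates 1 and 2 of WTAkita and replicate 1 of Ctrl, the libraries of lowest median fold enrichment, were the 3 lowest at -20.0 and -57.0 kb. The remaining 5 were called in part of the libraries. The site at -59.9 kb had a peak in 6 libraries (3.43 to 6.90 in WTAkita, 6.43 and 7.09 in Ctrl replicates 3 and 2), that at -6.0 kb in 4 (3.09 to 4.07 in WTAkita, 2.79 in Ctrl replicate 3) and those at -76.8, -45.4 and -17.5 kb in 1 WTAkita library each, at 2.12, 3.30 and 2.62.

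The adult beta-globin genes had no peak at the start itself, but a site inside each gene, in an intron. In Hbb-bs it lay 796 bp from the start (chr7:103827140-103827680), with 7.87, 9.12, 10.4 and 13.9 in WTAkita, against 13.0, 14.3 and 9.96 in Ctrl (means 10.3 ± 2.62 in WTAkita and 12.4 ± 2.24 in Ctrl, SD). In Hbb-bt it lay 712 bp from the start (chr7:103813140-103813582), with 5.36, 4.46, 5.84 and 5.82 in WTAkita, against 6.03, 6.63 and 5.93 in Ctrl (means 5.37 ± 0.645 in WTAkita and 6.20 ± 0.381 in Ctrl, SD). The deposited values of Hbb-bs overlapped between the groups, and those of Hbb-bt, at most 5.84 in WTAkita and at least 5.93 in Ctrl, overlapped after quantile normalization. A peak in a coding exon of Hbb-bs, at +26.5 kb, was found in WTAkita replicate 3 only, at 3.53.

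The 2 intronic sites lie in near copies, with 100% of the words of 50 bases in each window found again in the beta window, and the gene bodies share 67.2% of the words of Hbb-bs and 71.4% of those of Hbb-bt. Reads of the copies can therefore be exchanged, and their levels are uncertain one by one. The window in Hbb-bs, at chr7:103827200-103827400 on the minus strand, is shown for that reason, with the promoters of Hbb-bs (chr7:103827879-103828178) and Hbb-bt (chr7:103813874-103814173), which had no peak summit.
beta +25.9 kb site: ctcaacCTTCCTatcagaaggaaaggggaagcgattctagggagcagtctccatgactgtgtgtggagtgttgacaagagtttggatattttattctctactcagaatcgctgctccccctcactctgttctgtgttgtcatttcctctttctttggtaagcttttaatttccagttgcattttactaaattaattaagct
Hbb-bs promoter: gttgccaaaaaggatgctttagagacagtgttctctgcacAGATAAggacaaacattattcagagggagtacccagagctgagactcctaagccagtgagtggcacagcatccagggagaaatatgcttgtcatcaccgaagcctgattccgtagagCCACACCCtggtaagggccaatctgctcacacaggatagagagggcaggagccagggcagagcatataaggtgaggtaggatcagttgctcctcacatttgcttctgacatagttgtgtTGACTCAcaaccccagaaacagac
Hbb-bt promoter: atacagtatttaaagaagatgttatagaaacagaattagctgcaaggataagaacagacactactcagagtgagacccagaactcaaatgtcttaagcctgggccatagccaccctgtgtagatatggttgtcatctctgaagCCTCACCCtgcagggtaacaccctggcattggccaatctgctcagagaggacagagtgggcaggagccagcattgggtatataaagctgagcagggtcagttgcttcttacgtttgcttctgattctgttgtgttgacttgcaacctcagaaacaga
Laid side by side at the best single shift, without gaps, the promoters matched at 56.2% of 299 bases. A base gained or lost puts the rest out of step, so this share can understate their likeness. The promoter of Hbb-bs holds 1 GATA, 1 Kruppel-like (the CACCC box) and 1 NF-E2 motif, and that of Hbb-bt holds 1 Kruppel-like motif. Among all promoters of the table, 18.6%, 49.5% and 5.2% hold the GATA, Kruppel-like and NF-E2 motifs. The promoters of the 6 globin genes in the table held 1 to 4 CpG, where the median promoter holds 7. Hbb-bh1 is not in that table.

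Neither embryonic beta-globin gene had a site at its start. The nearest was 6026 bp away for Hbb-y and 15864 bp away for Hbb-bh1. Between -6.0 and +25.9 kb no library had a peak, a gap of 31.9 kb, the longest of the 2 windows.

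Beyond Hbb-bt, 6 sites had a peak in every library. At +40.9 kb (chr7:103812082-103812874), just past the end of the gene, the values were 8.15, 11.5, 9.98 and 10.7 in WTAkita, against 9.09, 10.1 and 11.5 in Ctrl. At +44.1 kb they were 8.67 to 12.8 in WTAkita and 7.87 to 10.8 in Ctrl, and at +46.2 kb 7.84 to 9.62 in WTAkita and 6.29 to 9.57 in Ctrl. All 3 overlapped between the groups. The site at +60.2 kb (chr7:103792737-103793447), whose window held a match to the CTCF core, had 7.26, 5.70, 11.8 and 9.58 in WTAkita, against 6.21, 12.2 and 7.72 in Ctrl. Its neighbour at +61.1 kb, 271 bp from the start of the olfactory receptor gene Olfr67, had 2.61 to 4.95 in WTAkita and 2.69 to 5.23 in Ctrl. The farthest, at +90.8 kb (chr7:103762166-103763672), had 12.7, 12.5, 12.5 and 15.5 in WTAkita, against 10.8, 16.6 and 10.7 in Ctrl. That site is a tandem repeat, with 48.0% of its words of 50 bases found again in the window, as its sequence at chr7:103762316-103762516 (minus strand) shows.
beta +90.8 kb site: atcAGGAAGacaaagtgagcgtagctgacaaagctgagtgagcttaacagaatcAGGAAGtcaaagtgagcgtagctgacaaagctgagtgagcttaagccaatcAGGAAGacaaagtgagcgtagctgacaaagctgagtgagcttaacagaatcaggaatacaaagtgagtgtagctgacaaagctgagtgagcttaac

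The alpha window was the denser, with 16.0 tested sites per 100 kb, against 6.48 in the beta window and 3.94 across the genome. Of the 57 sites 43 had a peak in every library, 7 in 2 to 6 libraries and 7 in a single library (5 in a WTAkita and 2 in a Ctrl library). No site was called in every library of 1 group and in no library of the other. The number of peaks was 34 to 37 per WTAkita library and 35 to 39 per Ctrl library in the alpha window, and 15 to 20 per WTAkita library and 13 to 17 per Ctrl library in the beta window. Motifs stood at the 42 tested sites in shares of 19% for GATA, 23.8% for Kruppel-like, 7.14% for NF-E2, 42.9% for ETS, 23.8% for RUNX and 28.6% for the CTCF core.

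**Figure D3:**
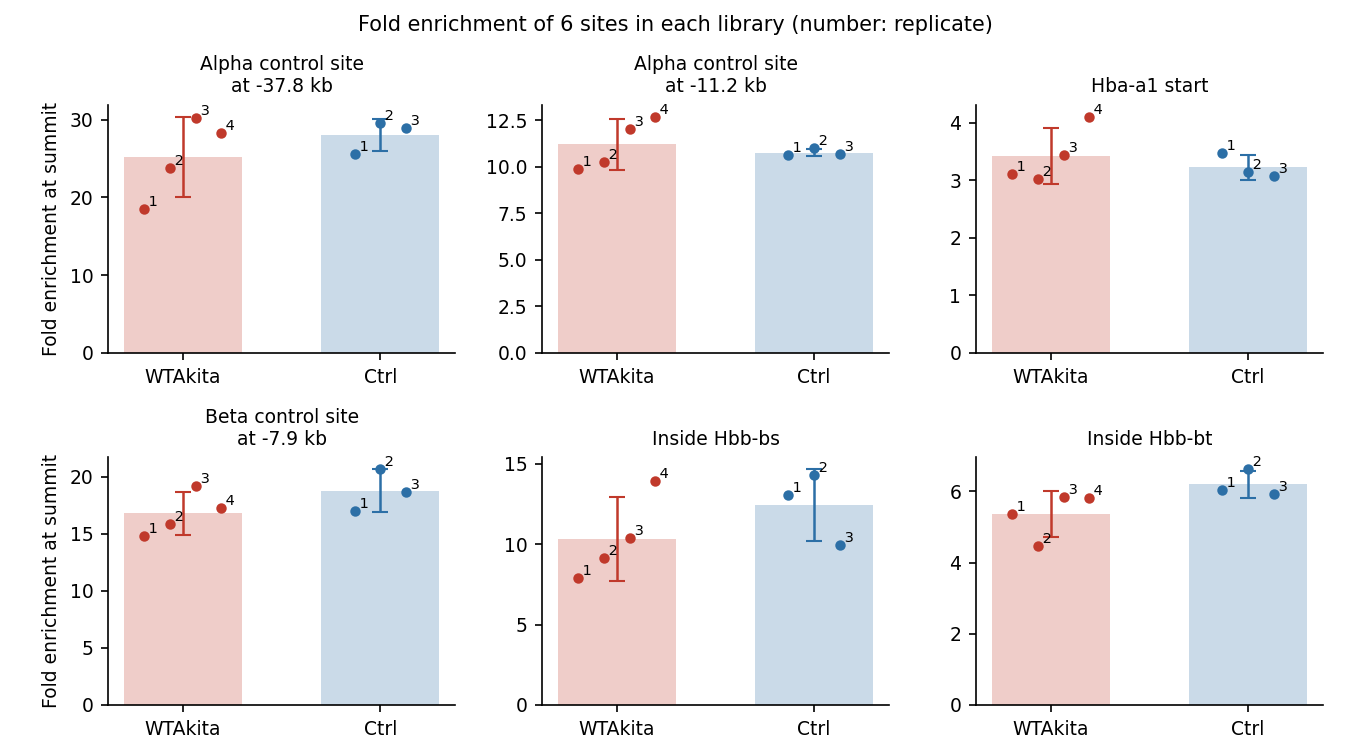
Fold enrichment at the summit (vertical axes, from 0) of 6 sites in each library. Points are libraries with their replicate number, bars are group means and whiskers are 1 SD, for WTAkita (red, n = 4) and Ctrl (blue, n = 3). WTAkita replicate 1 is the lowest of the 7 libraries at -37.8, -11.2 and -7.9 kb and inside Hbb-bs.

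For the comparison of WTAkita with Ctrl, fold enrichments were log2-transformed and quantile-normalized, and all 104274 regions were fitted in limma. In bulk samples, fewer cells with an open site and less opening per cell cannot be told apart. At an adjusted p under 0.05, 0 regions passed (0%), and at an unadjusted p under 0.05 3996 did (3.83%). The groups did not overlap at 4894 regions (4.69%). Of the 42 globin sites, 0 passed the adjusted test, 1 had an unadjusted p under 0.05 and 4 (9.52%) had groups that did not overlap. Their median difference was 0.04, with 22 sites above 0 and 20 below, against 0.01 over all regions. The median of the 42 was 0.0014 without WTAkita replicate 1 and -0.0026 without Ctrl replicate 1. With summit pileup per estimated tag in place of fold enrichment, 8 of the 42 were above 0 and the median was -0.16, where all regions had a median of -0.12.

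No control site of either cluster passed the test. The differences in the alpha control interval ran from -0.11 (standard error 0.08) at -37.8 kb to 0.27 (standard error 0.17) at -39.2 kb. The latter was 0.55 with unadjusted p = 0.013 from limma without WTAkita replicates 1 and 2 and Ctrl replicate 1. Of the 8 sites, 5 were above 0, among them the gene starts of Mpg at -50.0 kb (0.13) and Nprl3 at -8.8 kb (0.06). The site at the HS-12 position differed by 0.12 (standard error 0.11). In the beta control interval they ran from -0.23 (standard error 0.19) at -20.0 kb (-0.012 without Ctrl replicate 2) to 0.27 (standard error 0.17) at -21.3 kb, with 2 of 5 above 0, and the -7.9 kb site differed by -0.10 (standard error 0.08). Beyond Hbb-bt they ran from -0.02 to 0.24, with 5 of 6 above 0. The intronic sites of Hbb-bs and Hbb-bt differed by -0.21 (standard error 0.15) and -0.16 (standard error 0.16). The Hbb-bs value was -0.10 without Ctrl replicate 1, -0.38 without Ctrl replicate 3 and -0.023 without WTAkita replicates 1 and 2 and Ctrl replicate 1. The adjusted p from limma was 1.00 at each of these sites. A p that misses the threshold does not show that the groups are alike.

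**Figure D4:**
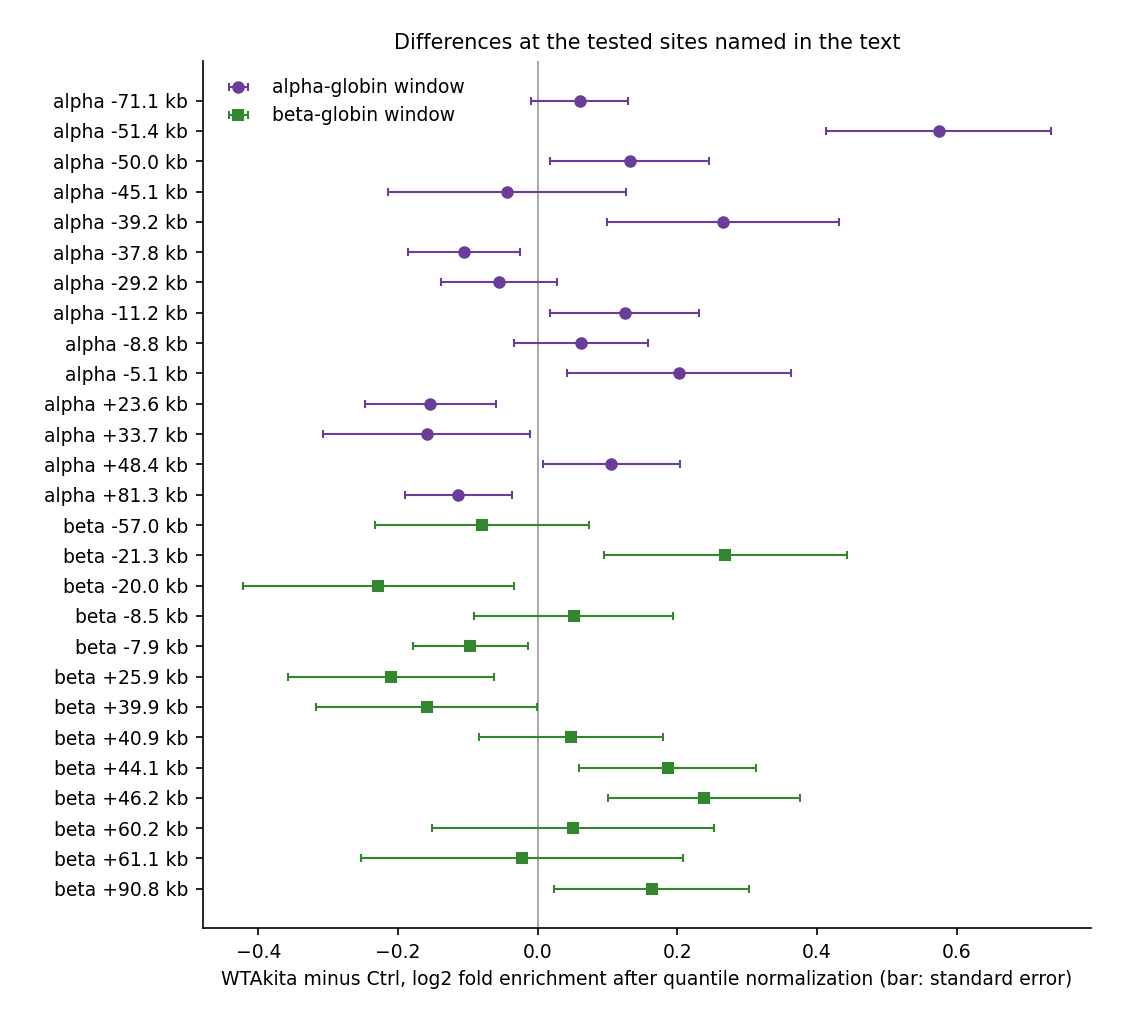
Difference of WTAkita minus Ctrl (horizontal axis, log2 fold enrichment after quantile normalization) at the 27 tested sites that the rules given below name. The vertical axis gives the distance in kb from Hba-x or Hbb-y. Circles are the alpha window, squares the beta window and whiskers 1 standard error from limma. All but 1 of the sites lie between -0.23 and 0.27, the exception being alpha -51.4 kb at 0.57.

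The largest difference was at an intergenic site of low fold enrichment at -51.4 kb (chr11:32224772-32225207), between Rhbdf1 and Mpg. It had 3.09, 2.68, 2.59 and 2.69 in WTAkita, against 1.94, 2.28 and 1.60 in Ctrl (means 2.76 ± 0.221 in WTAkita and 1.94 ± 0.341 in Ctrl, SD). Every WTAkita library was above every Ctrl library, with a difference of 0.57 (standard error 0.16, unadjusted p = 0.003 and adjusted p = 1.00 from limma). By fold enrichment it ranked above only 5.39% of the peaks of its library at the median. With peaks at a p of at most 1e-05 it had no region called in all libraries. Its summit pileup was 57 to 66 in WTAkita and 35 to 62 in Ctrl, while the median over a library's peaks was 39 to 53. The adjoining site at -51.0 kb (chr11:32225212-32225622) had 4.38 to 4.49 in WTAkita and 4.38 to 4.52 in Ctrl. It differed by 0.06 (standard error 0.17), and the groups overlapped there. The other 3 sites without overlap after normalization were the Mpg start at -50.0 kb (0.13, standard error 0.11), the Hbq1a start at +23.6 kb (-0.15, standard error 0.09) and +81.3 kb in an intron of Sh3pxd2b (-0.11, standard error 0.08).
Of the remaining sites, leaving aside the control intervals, the stretch beyond Hbb-bt and the globin genes, those with the largest statistics were, besides -51.4, +23.6 and +81.3 kb, the start of Snrnp25 at -71.1 kb (0.06, standard error 0.07), +48.4 kb (0.11, standard error 0.10) and +33.7 kb (-0.16, standard error 0.15). None of these last 3 had an unadjusted p under 0.05, and the adjusted p from limma was 1.00 for each.

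The promoters of genes that act on the globin loci were looked at beside them. Of 41 genes for transcription factors and cofactors, 39 had a tested region at the start. None passed the adjusted test in either direction, 0 had an unadjusted p under 0.05, and the median difference was 0.05 with 32 above 0. Gata1 and Klf1 had no such region. Of 18 annotated genes for heme synthesis and globin assembly, 17 had one, 0 passed in either direction and 0 had an unadjusted p under 0.05, with a median of 0.03 and 12 above 0. Alas2, the first enzyme of heme synthesis in red cells, had no region called in all libraries, with a peak in WTAkita replicate 4 only. Over all 17623 promoter regions the median was 0.03, 11233 were above 0 and 295 had an unadjusted p under 0.05. Among the genes farthest from 0 were Nr2c1 (0.14, standard error 0.10, but -0.05 with summit pileup), which encodes an orphan nuclear receptor that binds the embryonic globin promoters, on the higher side, and on the lower side Gata2 (-0.16, standard error 0.17), a GATA factor of stem cells, and Alad (-0.12, standard error 0.14), an enzyme of heme synthesis. These 3 had an adjusted p of 1.00 from limma.

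Promoters were compared over the 7 libraries with the control site of highest fold enrichment in each cluster, by normalized values. Of 17623, those most like the -37.8 kb alpha site were Mog, Gm12307 and Tmem270 (Pearson r of 0.97, 0.96 and 0.96). For the -7.9 kb beta site the promoters were Btla, Gm9968 and Kank4 (0.97, 0.96 and 0.95). They were picked as the highest of many over 7 libraries that share their depth and enrichment, so the values describe these libraries only.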

How the data were processed

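ATAC-Seq peak lists of 7 libraries of LSK cells (4 WTAkita, 3 Ctrl) were used. The authors trimmed reads (Trim Galore 0.4.2, cutadapt 1.9.1), and the reads were mapped onto mm10 by Bowtie2 2.3.4.1, freed of duplicates and turned into peaks library by library at p under 0.01, with cut sites extended to 150 bp and without a control library. The submitters' processing notes list MACS2 2.1.4, while the study's methods name an earlier version. Fold enrichment, as deposited, is the ratio between summit pileup and local background, and the authors' −log10 p depends on depth. Lines with the same start and end counted once.

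Peaks present in 75% of a group's libraries were joined at 50% overlap. A region was called in a library where peaks covered 50% of it, and took the highest fold enrichment among peaks sharing 50% of the shorter length. The summit pileup, solved from fold enrichment and p, was whole within 0.02 for 100% of peaks to 3 digits. Log2 values were quantile-normalized and tested with limma 3.58.1 (trend, Benjamini-Hochberg) in R 4.3.3, a step tested on simulated data, without a replicate block, as in the study's methods. Counts under peaks, which the study tested, were not used here. Genes came from GENCODE vM21 and sequence from GRCm38 (RefSeq). Python 3.11.15, numpy 2.4.6, pandas 2.3.3 and matplotlib 3.10.9 were used.

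Named sites were those within 1000 bp of a globin start, control sites called in all libraries, of the rest the 3 with the largest statistic in each direction, and 2 listed genes on each side of 0, of which 1 is not reported here. Theta gene sites, partly called sites and the site at alpha -51.0 kb were added after their values were seen. The members, lists and rules were chosen with earlier results of these data known. Alternatives covered the peak threshold, cover, peak value, scaling, the block and each library left out. Leaving out the 3 libraries of lowest median fold enrichment was chosen after seeing the data. Of the 19 heme genes and 15 erythroid markers listed, 1 each is not in the annotation under its name and was not analysed here.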

Additional observations from a re-analysis of the deposited data

Results flagged for a closer look

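In 3 of 34 sets of 4 WTAkita libraries 1 library lay far from the others. Most sets held normalized log2 values, as did all 3 found, and the rest held deposited fold enrichments or peak counts. For independent, normally distributed values chance alone gives about 1 in 20 sets, but these sets share the same 4 libraries. At alpha -5.1 kb WTAkita replicate 3 was lowest at 1.96, against 2.3 to 2.36 in the others. At alpha +48.4 kb WTAkita replicate 4 was highest at 4.39, against 4.15 to 4.18. At the intronic site of Hbb-bs, beta +25.9 kb, WTAkita replicate 4 was highest at 3.64, against 3.25 to 3.31.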

How the results depend on the processing

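At an adjusted p under 0.05 limma called 0 of 104274 regions, and the count was 5 with the highest peak that touches a region as its value, and 0 to 1 when single libraries were left out (1 without WTAkita replicate 4). It stayed at 0 with median centring, with 25% cover, with peaks at a p of at most 1e-05, with summit pileup per estimated tag and after dropping WTAkita replicates 1 and 2 and Ctrl replicate 1, whose median fold enrichments were lowest. Deviations of same-numbered libraries from their group means had correlations of 0.21, 0.025 and 0.063 for replicates 1, 2 and 3. The labels do not say what the numbers stand for, and whether such libraries share a batch was not tested. With a replicate block the count was also 0, with 6475 regions at an unadjusted p under 0.05, and the sign turned at beta +61.1 kb (0.17). No globin site and no listed promoter passed under any alternative. Of 31 named differences, 17 kept their sign throughout. With summit pileup per estimated tag, which moved the median of all regions to -0.12, the sign turned at alpha -71.1 kb (-0.17), -50.0 kb (-0.12), -11.2 kb (-0.025), -8.8 kb (-0.084) and +48.4 kb (-0.035), at beta -8.5 kb (-0.045), +40.9 kb (-0.17), +44.1 kb (-0.026) and +60.2 kb (-0.024) and at the Nr2c1 promoter (-0.050). With those 3 dropped it turned at alpha -45.1 kb (0.21), -29.2 kb (0.011) and -8.8 kb (-0.045) and at beta -8.5 kb (-0.078) and +40.9 kb (-0.090). With single libraries left out, differences ran from -0.13 to 0.049 at alpha -45.1 kb, from -0.22 to 0.071 at beta -57.0 kb, from -0.059 to 0.13 at -8.5 kb, from -0.047 to 0.11 at +40.9 kb, from -0.10 to 0.27 at +60.2 kb and from -0.25 to 0.17 at +61.1 kb. The alpha -51.4 kb difference ran from 0.44 to 0.67 over these, and was 0.36 with summit pileup. Without single libraries the difference ran from -0.36 to -0.012 at beta -20.0 kb and from -0.38 to -0.10 at +25.9 kb, where it was -0.30 with the replicate block. The causes of these changes were not tested. Openness too weak to be called as a peak is beyond the depth.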
